A study of Mus musculus with 49 samples.

Results

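The late stage of oleic acid lung injury was examined in mouse blood cells by setting 8 mice that had received oleic acid (OA) against 4 that had received physiological serum, 18 or 24 h after the injection. The mice were taken by their labels alone, and they are 12 of the 37 mice and 16 of the 49 arrays of the series. At 18 h there were 4 OA mice (5 arrays) and 2 serum mice (3 arrays), and at 24 h there were 4 OA mice (6 arrays) and 2 serum mice (2 arrays). Every mouse was a female of the C57Bl/6J strain, wild type and 7 weeks old, was anaesthetised with xylazine and ketamine, and was injected through the tail vein with OA or with serum. Anaesthesia and injection were therefore shared by both treatments, and each time rests on 2 control mice. The tissue is labelled PBMC (peripheral blood mononuclear cells), although the extraction text names lung and the RNA kit is one for blood. Amplified, 33P-labelled RNA was hybridized to nylon filters that carry spotted mouse cDNA clones, and for 4 of the 12 mice the RNA was put on 2 filters, which were averaged. Values are log2 normalized signals, 1 per mouse, and differences are OA minus serum on the log2 scale, adjusted for time, with their standard error (SE).

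Oleic acid is an unsaturated fatty acid. Given into a vein it reaches the lung first, injures the capillary endothelium and alveolar wall, and leads to protein-rich oedema with an influx of neutrophils, which makes it a common model of acute lung injury. Blood leukocytes that pass through the injured lung can be primed there. The genes followed here include those of interleukin-1 and its antagonists, the calprotectin proteins of neutrophils and monocytes, interferon-stimulated genes and antigen presentation. Late samples ask what of such a response is still seen in the circulation after most of a day.

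Marker genes of blood cells were set beside the sample label, though they cannot tell blood from lung that holds blood. Of 18 lung epithelium and endothelium markers measured, 11 were above the empty spots in any mouse and 3 in all. Cd3e, part of the T cell receptor complex, Cd79b, part of the B cell receptor complex, and Cd74, the invariant chain of antigen-presenting cells, were above the empty spots of the filter in all 8 OA and all 4 serum mice. Nkg7, a granule protein of cytotoxic cells, was so in 7 of 8 and 3 of 4. Red cell RNA was also present: the alpha-globin gene Hba-a1 was at the scanner's ceiling on all 16 filters, so its level could not be compared. Pf4, a platelet chemokine, lay between 12.91 and 14.38 in every mouse. In such mixed samples fewer cells of a type and less RNA per cell cannot be told apart.

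A pair of mice stood apart from the other 10 before any comparison. OA mouse 2 and serum mouse 1, both at 18 h, lay at 54.2 and 53.1 on the first principal component (42.9% of the variance), whereas the other 10 lay between -16.7 and -3.11. Their deviations from the mean of all 12 mice correlated with r = 0.853 across clones, against -0.498 to 0.598 in the other 65 pairs, a description across clones that are not independent. Arpc4, a subunit of the actin-nucleating Arp2/3 complex, was at 7.54 and 7.36 in the pair and at 12.11 to 13.66 in the rest. Trim30a, an interferon-inducible gene of the tripartite motif family, was at 12.01 and 11.47 against 7.50 to 10.06. Since the pair holds 1 mouse of each treatment, it widens the spread at 18 h on both sides. Without the pair no clone passed in the late comparison, and of the 155 genes that the naming rules selected, 11 changed sign, none of them among the 30 leading ones described below. On the second component (17.6%) serum mouse 1 at 24 h lay at -16.8, within the range of the 18 h mice outside the pair (-27.1 to -11.7), while the other 5 mice at 24 h lay between 1.59 and 27.8.

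**Figure D1:**
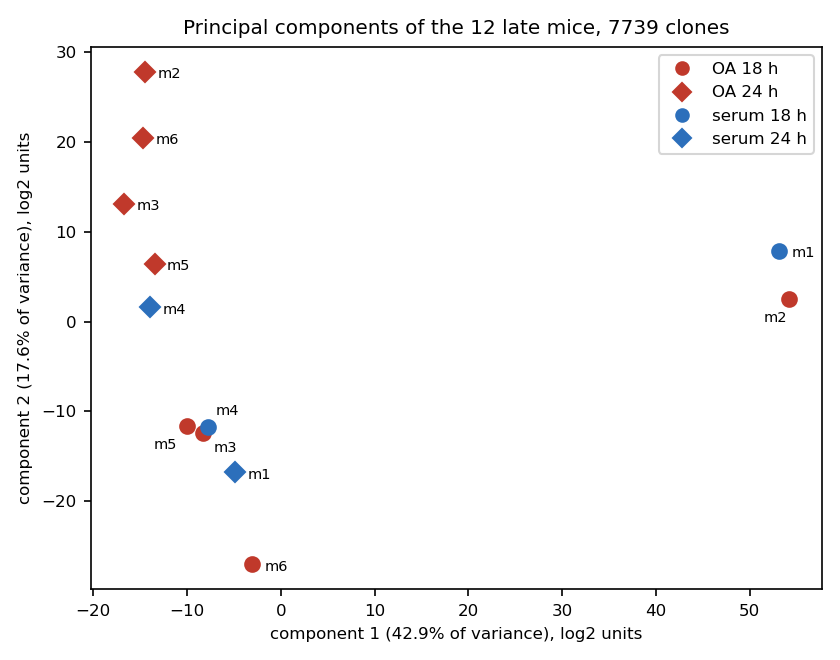
Scores of the 12 mice on the first and second principal components of 7739 clones (log2 units, share of variance on each axis), with colour for treatment and shape for time. OA mouse 2 and serum mouse 1 at 18 h lie together at 54.2 and 53.1 on the first axis, and serum mouse 1 at 24 h lies at -16.8 on the second, among the 18 h mice.

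Filters of OA mice were also dimmer. The median clone signal per mouse ran from 97.5 to 200 in OA mice and from 191 to 261.5 in serum mice, a log2 difference of -0.54 (exact permutation within time, two-sided, p = 0.0267). Between 47.5% and 55.6% of clone spots per mouse exceeded the empty spots. With the log2 median signal as a covariate no clone passed either, and the differences of the 30 leading genes (15 each way, described below) were a median 0.978 times their size (0.343 to 1.76 times).

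No gene passed the test for a difference between OA and serum mice at the late stage. Of 7739 clones 0 (0%) had a Benjamini-Hochberg adjusted p under 0.05 in limma, and the smallest adjusted p was 1.00 after rounding. At an unadjusted p under 0.05 there were 174 clones (2.25%), 75 of them higher in OA (0.969%) and 99 lower (1.28%), which is under the 5% that a threshold of 0.05 allows by itself. The precision was moderate: the median SE was 0.19, and the 95% interval of a clone had a median half-width of 0.42, or 1.34-fold. For 6955 clones (89.9%) the interval lay within 1 log2 unit of no difference, and of the 4538 clones above the empty spots in at least 4 mice this held for 3826 (84.3%). These intervals are those of signals that still hold the filter's background, so for dim clones they do not bound the difference in RNA: with the empty-spot median subtracted, the leading differences were a median 1.38 times as large (up to 2.52 times). The estimate itself was past 2-fold for 7 clones (0.0905%), higher for Rgs17 and lower for Fgl2, Mfsd14b, Sfpq, Anpep, Marcks and Il1b, of which Fgl2, Mfsd14b, Sfpq and Marcks are named here after their values were seen. All 8 OA mice lay above all 4 serum mice for 1 clone (0.0129%), that of Osbpl5, an oxysterol-binding protein family gene also named after its value was seen (0.27 higher). All 8 lay below all 4 for 2 clones (0.0258%), those of Ywhab and Scyl2.

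Among the 15 genes with the leading lower values in OA mice, Ywhab came first. It encodes 14-3-3 beta, an adaptor that binds phosphorylated signalling proteins. Its signal was 9.71, 9.69, 9.59 and 9.53 in the OA mice at 18 h and 10.09 and 9.92 in the serum mice, and at 24 h it was 9.43, 9.53, 9.48 and 9.42 against 9.84 and 9.90. The treatments did not overlap at either time, and the 2 filters of any 1 mouse differed by at most 0.40. The difference was -0.39 (SE 0.10, 95% interval -0.61 to -0.17, limma adjusted p = 1.00), with an exact permutation p of 0.00444, the smallest that the 225 reassignments within time can give. Its other clones gave -0.19 and -0.31. Scyl2, a pseudokinase of clathrin-coated vesicles, was above the empty spots in 0 of the 8 OA and 2 of the 4 serum mice, so no fold is given (difference -0.35, SE 0.13).

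Morc3, a chromatin-associated ATPase of nuclear bodies, was at 9.70, 9.20, 9.29 and 9.06 in OA mice at 18 h, against 9.81 and 9.51 in serum mice. At 24 h it was at 9.49, 9.59, 9.22 and 9.38, against 10.25 and 10.00. The treatments overlapped at 18 h, through OA mouse 2, and did not at 24 h, and the difference was -0.53 (SE 0.15, limma adjusted p = 1.00). Its other clones gave -0.21 and 0.07, 1 of which is opposite in sign. The clone at 0.07 was above the empty spots in 0 OA and 0 serum mice. Klf2, a transcription factor that keeps lymphocytes and endothelium quiescent, was at 10.87, 9.98, 9.79 and 10.17 in OA mice at 18 h against 11.12 and 10.32. At 24 h it was at 9.41, 9.57, 9.37 and 9.62 against 10.12 and 10.25. The mice that stood apart were the highest of their groups at 18 h, and the difference was -0.61 (SE 0.20, limma adjusted p = 1.00).

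Also among these 15 were Anpep, Cxcl5 and Il6ra. Anpep encodes aminopeptidase N (CD13) of monocytes and granulocytes. Its signal was 7.86, 8.26, 7.21 and 8.34 in OA mice at 18 h against 8.37 and 9.32, and 7.79, 7.28, 7.12 and 7.64 at 24 h against 9.76 and 7.79. Serum mouse 1 at 24 h was the highest of all 12, and the filters of serum mouse 4 at 18 h gave 10.47 and 8.18. The difference of -1.12 (SE 0.34, limma adjusted p = 1.00) was -0.71 without serum mouse 1 at 24 h. Cxcl5, a chemokine that attracts neutrophils, lay between 9.13 and 10.35 in OA mice and between 9.77 and 11.23 in serum mice (-0.64, SE 0.21), and the same 2 filters of serum mouse 4 gave 9.98 and 12.48. Il6ra, the interleukin-6 receptor chain, lay between 6.92 and 7.87 against 7.62 to 8.07 (-0.40, SE 0.15). Its other clone gave -0.33 and was above the empty spots in 0 of 8 OA and 1 of 4 serum mice.

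The other members of this group ran from -0.79 to -0.43. H2-Ob, the beta chain of the MHC class II modulator H2-O of B cells, was lower by -0.77 (SE 0.27), with OA mice between 7.06 and 8.78 and serum mice between 8.17 and 9.02. Sptlc1, a subunit of the enzyme that starts sphingolipid synthesis, gave -0.79 (SE 0.27) and was above the empty spots in 2 of 8 OA and all 4 serum mice. Wasf2, which drives actin branching at the cell edge, gave -0.62 (SE 0.23), and -0.40 without serum mouse 1 at 24 h. Its other clone, above the empty spots in all 12 mice, gave -0.08 (-0.48 at 18 h and 0.33 at 24 h). The rest included Rchy1 (-0.53, and -0.35 without serum mouse 1 at 18 h), a ubiquitin ligase, and Hps4 (-0.52, and -0.24 without the pair that stood apart), of lysosome-related organelles. Zcchc7 (-0.52), of nuclear RNA surveillance, Dennd3 (-0.51), a Rab regulator, and Rabl3 (-0.43), a Rab-like GTPase, completed them. Dennd3 was above the empty spots in 0 of 8 OA mice. Its other clone gave 0.19 and was so in 1 of 8 OA and 0 of 4 serum mice. For the clones that represent these 15 genes the sign was the same at 18 and 24 h, at least 7 of the 8 OA mice lay below the serum mean, and the treatments did not overlap for 3 genes at 18 h and 13 at 24 h, where OA lay below serum without overlap for 2.17% and 10.5% of all clones. These genes were chosen by this comparison and for signal in serum mice alone, so the counts describe them and test nothing.

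Among the 15 genes with the leading higher values, Acp1 came first. It encodes a low-molecular-weight protein tyrosine phosphatase. Its signal was 7.87, 8.41, 8.36 and 8.20 in OA mice at 18 h against 7.96 and 7.67 in serum mice, and 9.48, 9.16, 9.41 and 9.23 at 24 h against 7.48 and 8.56. At 24 h every OA mouse was above both serum mice, and at 18 h OA mouse 2 was not. The difference was 0.85, or 1.80-fold (SE 0.23, 95% interval 0.35 to 1.34, limma adjusted p = 1.00, exact permutation p = 0.00889), but its other clone gave 0.02, and the filters of OA mouse 2 at 24 h gave 8.13 and 10.84. Without serum mouse 1 at 24 h, the lowest of the serum mice, the difference was 0.53. The other clone of Acp1 was above the empty spots in 2 OA and 0 serum mice.

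Such disagreement between 2 filters of 1 RNA was shared by much of this group. Ifi44, an interferon-stimulated gene, was at 7.22, 7.66, 7.74 and 7.55 in OA mice at 18 h against 7.41 and 7.01, and at 8.23, 8.46, 8.74 and 8.63 at 24 h against 6.78 and 8.03 (0.72, SE 0.24). The filters of OA mouse 2 at 24 h read 6.68 and 9.78 for it. For the same mouse they read 8.77 and 12.83 for Qtrt2, a subunit of the enzyme that puts queuine into transfer RNA (0.88, SE 0.31, other clone -0.12). They read 8.51 and 12.60 for A4galt, which makes the glycolipid Gb3 (0.73, SE 0.26, other clone 0.23), and 6.82 and 10.98 for Cep57, a centrosome protein (0.80, SE 0.30). They read 7.43 and 9.72 for Pfkfb2, a regulator of glycolysis (0.48, SE 0.19). Between these filters 42 of the 7739 clones (0.543%) differed by more than 2 log2 units. Among them were 6 of the 15 leading higher genes and 0 of the 15 leading lower genes. The other clone of Qtrt2 was above the empty spots in 1 of 8 OA and 1 of 4 serum mice, and that of A4galt in 0 of 8 and 0 of 4.

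Another 3 genes differed between the filters of serum mouse 4 at 18 h. Rgs17, a regulator of G protein signalling, read 9.12 and 11.36 there, Dbf4, which activates the replication kinase Cdc7, read 7.47 and 9.33, and Gtf3c5, of RNA polymerase III, read 7.69 and 9.22. Their differences between treatments were 1.03 (SE 0.38), 0.80 (SE 0.31) and 0.84 (SE 0.33). Their other clones gave 0.06 for Rgs17, 0.02 and 0.21 for Dbf4 and 0.05 for Gtf3c5. Of these clones only that of Dbf4 at 0.21 was above the empty spots in any mouse (3 of 8 OA and 0 of 4 serum). A clone at the level of the empty spots cannot show whether the gene differs. In all, 14 of the 15 leading higher genes and 8 of the 15 leading lower genes had a gap between 2 filters of 1 mouse, in at least 1 of 4 mice, that exceeded the difference between treatments. The share over all clones was not counted. Over all clones the median gap was 0.21 to 0.26 in each of the 4 mice, and the median absolute late difference was 0.13. The counts of 14 and 8 therefore have no share over all clones to be read against. The median gap of the leading higher genes was 0.87 in OA mouse 2 and 0.41 in serum mouse 4 at 18 h. In OA mice 2 and 6 at 24 h it was 0.58 and 0.40. For the leading lower genes the values were 0.23, 0.32, 0.33 and 0.16 in the same order.

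**Figure D2:**
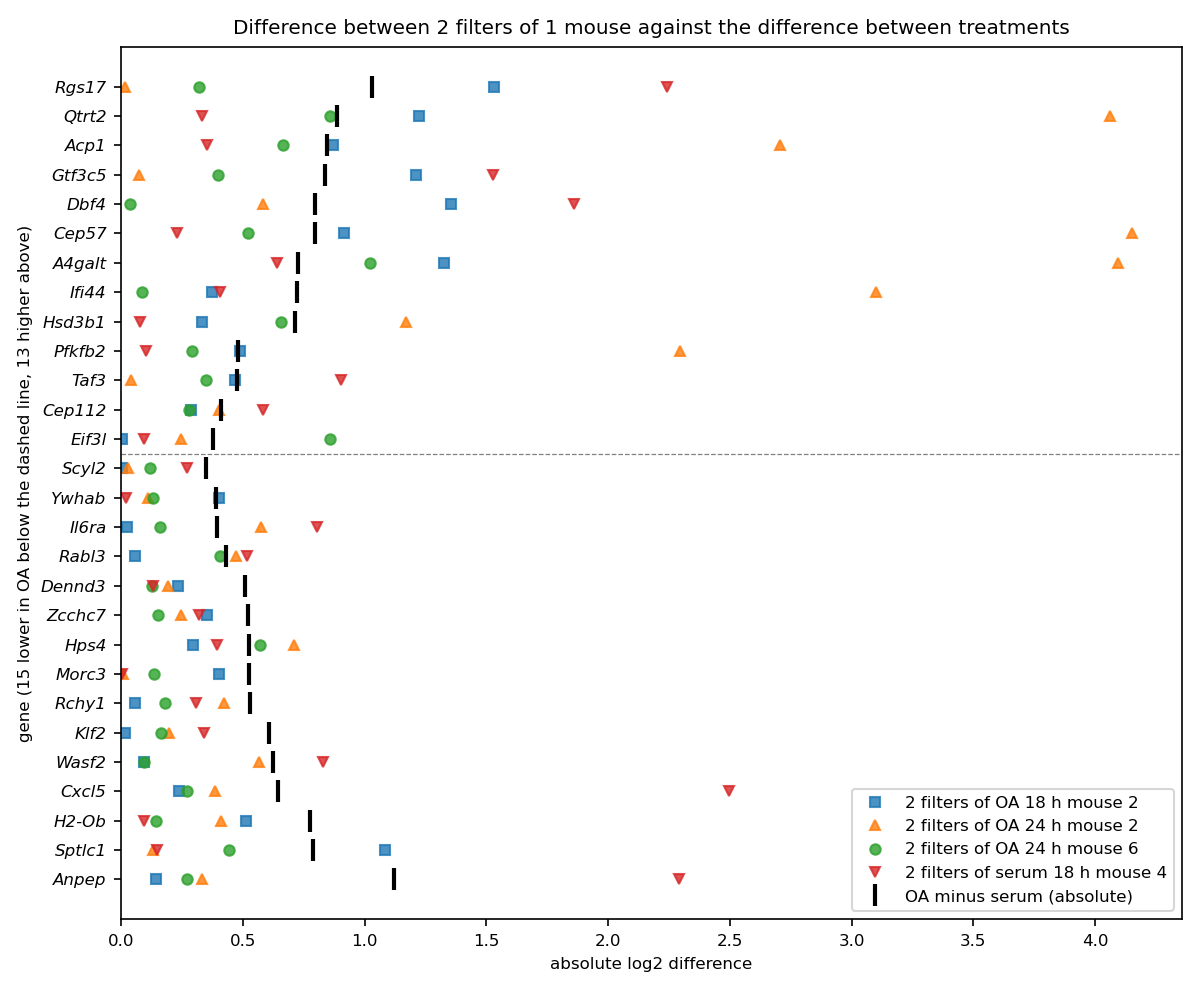
Absolute log2 difference between the 2 filters of each of 4 mice (coloured symbols) beside the absolute OA minus serum difference (black bars) for 13 of the 15 leading higher genes (above the dashed line) and the 15 leading lower genes (below it). The filters of OA mouse 2 at 24 h differ by up to 4.15, for Cep57, and gaps beyond the bar occur in all 13 of the higher and 8 of the 15 lower genes drawn. Over all clones the median gap is 0.21 to 0.26 in each mouse and the median absolute difference between treatments is 0.13.

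Other higher genes were Hsd3b1, a steroid dehydrogenase, Eif3l, of the translation initiation factor eIF3, Cep112, a centrosome protein, and Taf3, a subunit of TFIID. Hsd3b1 was at 8.03, 8.49, 8.46 and 7.94 in OA mice at 18 h against 7.63 and 7.89, and at 9.31, 9.12, 8.36 and 9.38 at 24 h against 7.67 and 8.48 (0.72, SE 0.23). Its OA values lay above the serum values at 18 h and overlapped them at 24 h. Eif3l lay between 7.86 and 8.37 in OA mice and between 7.61 and 7.97 in serum mice (0.38, SE 0.14), with estimates of 0.38 at 18 h and 0.37 at 24 h, and it overlapped at 24 h only. The 15 higher genes were chosen by this comparison and for signal in OA mice alone, so counts over them test nothing. Of the 15 genes, 14 had the larger estimate at 24 h, and in 12 the lowest serum value was that of mouse 1 at 24 h. Without that mouse the late difference shrank by over 1.5 times for 8 of the 15. It was 0.39 for Ifi44, 0.53 for Qtrt2, 0.40 for A4galt, 0.41 for Cep57, 0.28 for Pfkfb2, 0.49 for Dbf4 and 0.42 for Gtf3c5, beside the value of Acp1 given above.

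**Figure D3:**
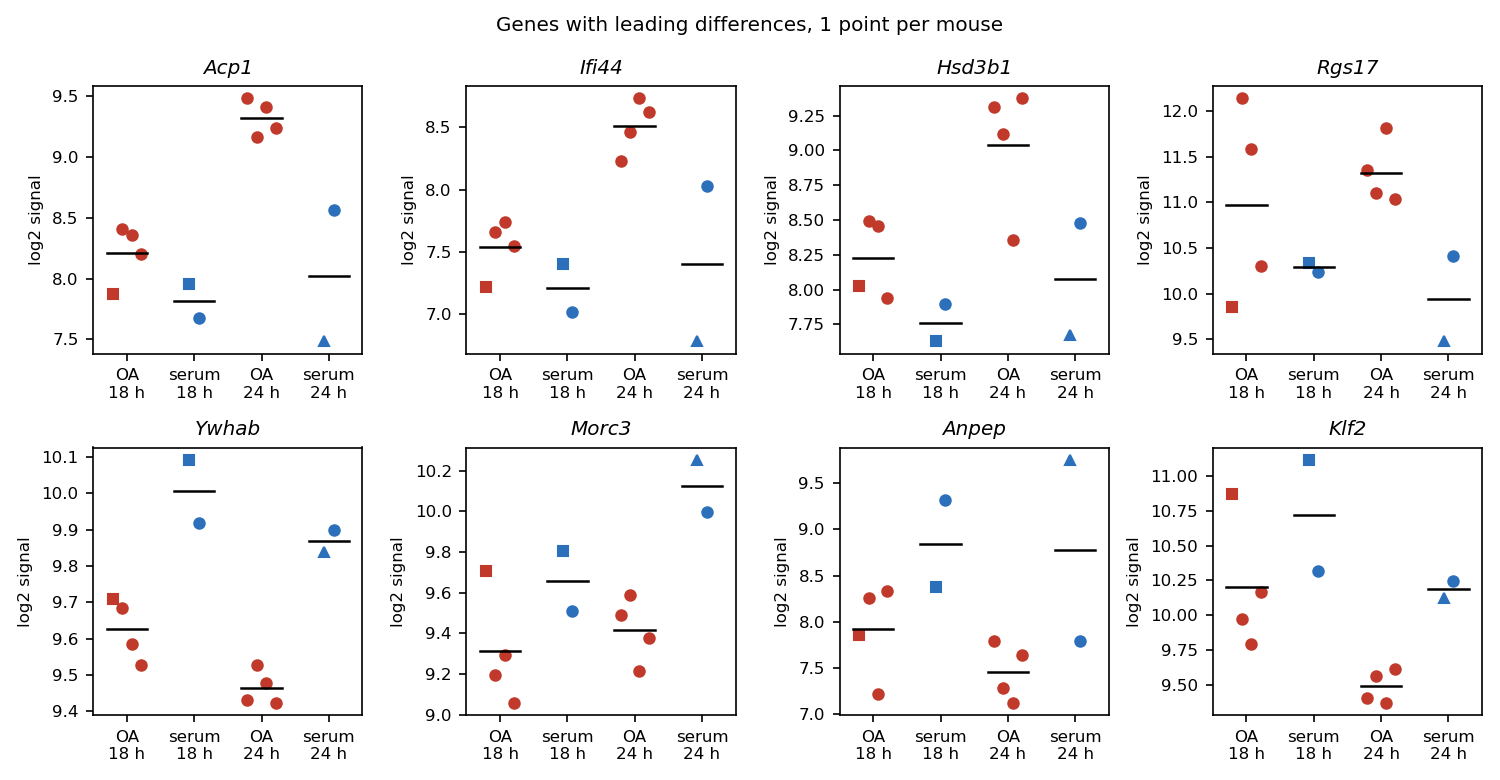
Log2 signal of 8 genes in every mouse, with the bar at the group mean, for 4 OA and 2 serum mice at each time. Squares are the 2 mice that stood apart at 18 h and triangles are serum mouse 1 at 24 h; Ywhab separates the treatments at both times, and Acp1 and Ifi44 do so at 24 h.

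Interleukin-1 genes spread widely between mice. Il1b encodes interleukin-1 beta, the cytokine released by activated monocytes and neutrophils. Its signal was 11.69, 10.33, 11.89 and 11.15 in OA mice at 18 h against 11.80 and 9.61 in serum mice, and 8.73, 8.08, 10.70 and 7.50 at 24 h against 13.35 and 10.11. The serum mice at 24 h lay far apart, and OA mouse 5 was above the lower of them. The late difference was -1.21 (SE 0.85, 95% interval -3.05 to 0.63, limma adjusted p = 1.00), made of 0.56 at 18 h and -2.98 at 24 h, and it was -0.16 without serum mouse 1 at 24 h.

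Il1rn, the natural antagonist of the interleukin-1 receptor, was at 10.07, 9.20, 9.91 and 9.93 in OA mice at 18 h against 10.56 and 8.63. At 24 h it was at 8.24, 7.84, 8.06 and 7.99 against 12.12 and 8.26. Every OA mouse at 24 h was below both serum mice, just below mouse 4 and far below mouse 1. The late difference was -0.99 (SE 0.65, limma adjusted p = 1.00), and 0.03 without serum mouse 1 at 24 h. Il1r2, the decoy receptor, gave -0.06 (SE 0.26), with an interval of -0.63 to 0.51.

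The calprotectin genes followed the same mice. S100a8 was at 13.37, 10.32, 11.94 and 11.47 in OA mice at 18 h against 13.46 and 10.50, and at 9.52, 9.37, 9.84 and 10.00 at 24 h against 13.14 and 9.51. Values above 13 occurred in OA mouse 2 and serum mouse 1 at 18 h and in serum mouse 1 at 24 h, so 1 treated and 2 control mice carried them. The late differences were -0.92 (SE 0.73) for S100a8, -0.54 (SE 0.76) for its partner S100a9, -0.58 (SE 0.58) for the granule protein gene Lcn2 and -0.98 (SE 0.51) for Tyrobp, the adaptor of activating myeloid receptors. None passed in limma (adjusted p = 1.00 each), and without serum mouse 1 at 24 h they were -0.06, 0.28, 0.11 and -0.36. That mouse was measured on 1 filter. Ltf, a gene of secondary granules, was above the empty spots in 2 of 8 OA and 0 of 4 serum mice.

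**Figure D4:**
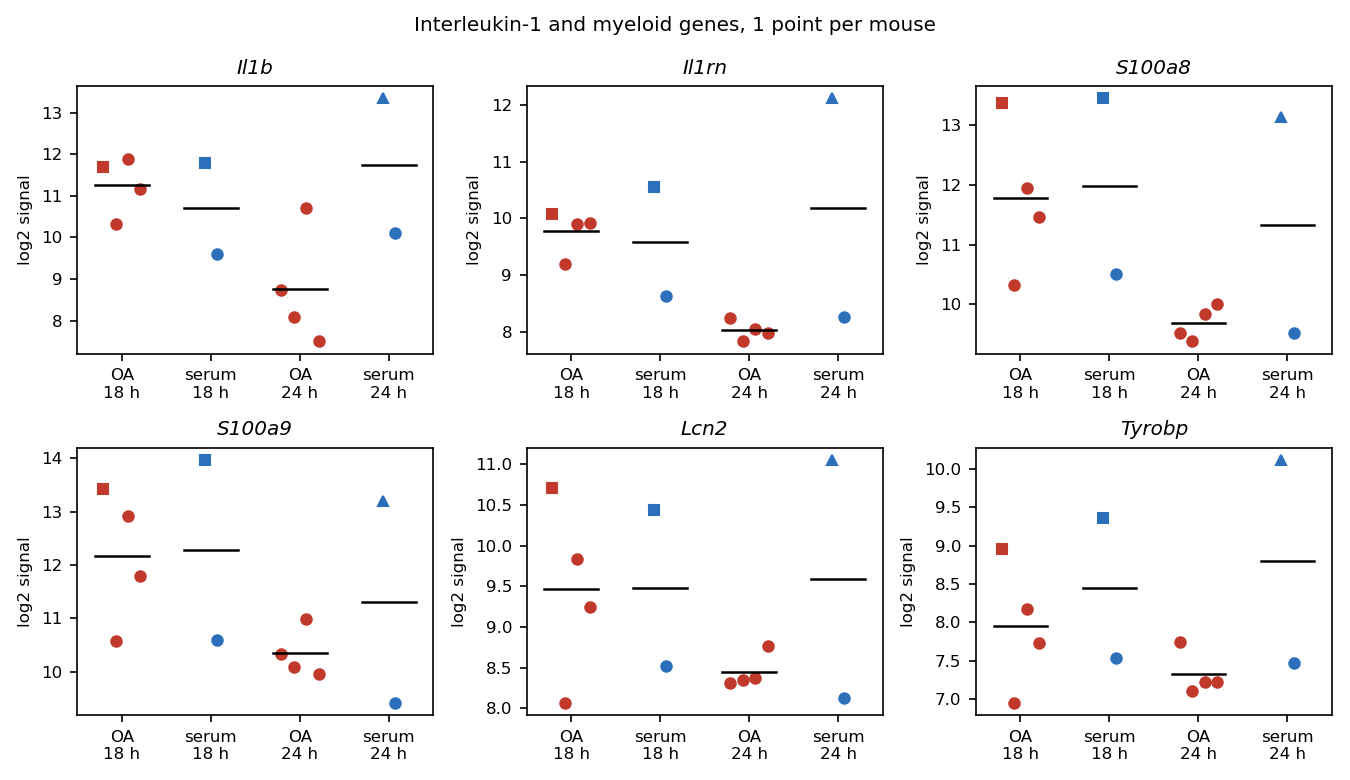
Log2 signal of interleukin-1 and myeloid genes in every mouse, with the bar at the group mean (4 OA and 2 serum mice at each time). Triangles mark serum mouse 1 at 24 h, which is the highest of the 24 h mice in all 6 genes (13.35 for Il1b), and squares mark the 2 mice that stood apart at 18 h.

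Lists of genes were then described by the signs and the median of their differences, beside those of all 5778 genes measured, of which 2930 were higher and 2848 lower with a median of 0.00. No gene of any of the 24 lists passed. Many of the single values below depend on single serum mice. Of the 125 genes named by rule other than the leading ones, 76 moved by over 1.5 times in the late comparison without serum mouse 1 at 24 h, and 17 of these changed sign. Without serum mouse 1 at 18 h 57 moved and 16 changed sign. Without serum mouse 4 these counts were 54 and 3 at 18 h and 34 and 5 at 24 h. Leaving out 1 OA mouse moved 9 to 18. Estimates near 0 move by such a factor easily. Among neutrophil markers, 16 of 35 listed genes were measured, 2 were higher and 14 lower, and the median was -0.26. At 24 h the median was -0.58, but without serum mouse 1 at that time it was 0.24, with 12 higher and 4 lower. The mean level of the list was 9.51 in that mouse, 8.14 in the other serum mouse and 8.15 to 8.52 in the OA mice. Slpi, a protease inhibitor of neutrophils, gave -0.84 (SE 0.58), and Ncf4, of the NADPH oxidase, gave -0.26 (SE 0.16). Without that mouse they gave 0.01 and -0.13.

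Monocyte and macrophage markers depended on the same mouse. Of 28 measured, 7 were higher and 21 lower (median -0.18), and at 24 h 4 were higher and 24 lower (-0.32), which became 13 and 15 (-0.01) without serum mouse 1. Grn, the growth factor progranulin, gave -0.41 (SE 0.20) and -0.25 without that mouse, Sirpa, the receptor of the CD47 signal, -0.40 (SE 0.19) and -0.15 without it, and the lysosomal proteases Ctsb and Ctsd 0.36 (SE 0.27) and 0.31 (SE 0.43). In the list of inflammatory cytokines and chemokines, 12 of 28 were higher and 16 lower (median -0.05), and 4 had an unadjusted p under 0.05 at 24 h, all lower, where 3.17% of all clones did, and 0 without serum mouse 1 at that time. Ccl6, a chemokine of myeloid cells, gave -0.73 (SE 0.34), made of 0.03 at 18 h and -1.48 at 24 h, with -0.47 for its other clone. Without serum mouse 1 at 24 h it was -0.32, and -0.90 at 24 h.

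Lymphocyte markers lay near 0. T cell markers had 16 higher and 18 lower of 34 (median -0.01), and the mean level of the list lay between 8.03 and 8.29 in all 12 mice. Lef1, a transcription factor of naive T cells, gave 0.41 (SE 0.16), with an unadjusted limma p of 0.026. Its other clone gave -0.09 but was above the empty spots in 0 OA and 0 serum mice, so it cannot show whether Lef1 differs. Cd7 gave 0.27 (SE 0.18) and the adhesion receptor gene Cd2 -0.21 (SE 0.14). Cd3e gave -0.34 (SE 0.38), with the highest values in the mice that stood apart, 9.70 and 10.82, and 8.30 to 8.88 elsewhere. B cell markers had 8 higher and 15 lower of 23 (-0.04). Tnfrsf13b, the receptor TACI, gave -0.41 (SE 0.15) and Cd79b 0.15 (SE 0.26, interval -0.42 to 0.72). NK and cytotoxic markers had 8 higher and 6 lower of 14 (0.07), with Il2rb, a chain of the interleukin-2 and interleukin-15 receptors, at 0.33 (SE 0.26), Nkg7 at 0.24 (SE 0.32) and Ncr1, the receptor NKp46, at -0.20 (SE 0.16).

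Platelet markers had 6 higher and 4 lower of 10 (0.08). Itga2b, the platelet integrin chain, gave -0.39 (SE 0.19), Gp9 0.43 (SE 0.49) and Pf4 -0.00 (SE 0.31). Erythroid markers had 18 higher and 12 lower of 30 (0.02), with 9 higher and 21 lower at 18 h (-0.10) and 23 higher and 7 lower at 24 h (0.13). Slc4a1, the red cell anion exchanger, was at 7.95, 9.17, 10.91 and 8.37 in OA mice at 18 h against 8.02 and 10.79. At 24 h it was at 13.36, 12.14, 12.33 and 13.48 against 12.34 and 12.49. All 6 mice at 24 h were above all 6 at 18 h, while the treatments overlapped at both times, and the late difference was 0.05 (SE 0.58, interval -1.21 to 1.31). Mpp1, a red cell membrane scaffold, gave -0.66 (SE 0.35) and Alas2, the enzyme that starts heme synthesis in red cells, -0.12 (SE 0.26).

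The medians of MHC class I and interferon-stimulated genes had opposite signs at 18 and 24 h, while no gene passed the test of the difference between times. MHC class I presentation genes had 10 higher and 2 lower of 12 at 18 h (median 0.39), and 1 higher and 11 lower at 24 h (-0.25). Without serum mouse 1 at 18 h, of the pair that stood apart, the counts at 18 h were 4 and 8 (-0.13). Tap1, a peptide transporter, gave 0.52 at 18 h and -0.18 at 24 h (0.31 and -0.54 in its other clone), the chaperone gene Calr 0.92 and -0.40, and Psme1, of the proteasome activator, 0.18 and -0.68. Of 35 interferon-stimulated genes, 24 were higher and 11 lower at 18 h (0.10), and 9 higher and 26 lower at 24 h (-0.25), or 17 and 18 (-0.01) without serum mouse 1 at 24 h. Irf9, a transcription factor of interferon signalling, gave a late difference of 0.28 (SE 0.17). MHC class II genes had 5 higher and 5 lower of 10 (-0.00), H2-Aa gave 0.00 (SE 0.25), H2-DMa 0.25 (SE 0.34) and Cd74 0.02 (SE 0.30).

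The list closest to the injected compound was that of fatty acid handling and PPAR targets, in which 32 of 47 genes were higher and 15 lower (median 0.09), with medians of 0.09 at 18 h and 0.12 at 24 h. The mean level of the list was lowest in serum mouse 1 at 18 h (7.96), of the pair that stood apart, and serum mouse 1 at 24 h (8.06). The other serum mice, at 8.09 and 8.16, lay within the range of the OA mice over both times (8.06 to 8.31). Elovl6, which elongates fatty acids, gave 0.48 (SE 0.24), and 0.18 without serum mouse 1 at 24 h. Its other clone gave 0.07 and was above the empty spots in 3 of 8 OA and 2 of 4 serum mice. Acsl1, which activates fatty acids for metabolism, gave 0.34 (SE 0.24). Acsl1 was at 9.29, 8.71, 8.94 and 8.31 in OA mice at 18 h against 8.81 and 8.66, and at 10.41, 9.65, 9.19 and 10.22 at 24 h against 9.15 and 9.38. At 24 h OA mouse 5 was below the higher serum mouse, so the treatments overlapped at both times. Cpt1a, the carnitine transferase of mitochondrial import, was above the empty spots in 1 of 8 OA and 0 of 4 serum mice.

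Among oxidative stress genes 20 of 38 were higher (0.03), with the peroxiredoxin gene Prdx4 at 0.80 (SE 0.35, other clones -0.30, -0.09 and 0.30), Txn1, thioredoxin, at -0.48 (SE 0.31) and the microsomal glutathione transferase gene Mgst1 at -0.38 (SE 0.29). Of the other clones of Prdx4, only that at -0.09 was above the empty spots in all 8 OA and all 4 serum mice. Gpx1, glutathione peroxidase, was at the ceiling on 6 of 16 filters. Of hypoxia and glycolysis genes 11 of 24 were higher (-0.01), with Hif1a, the oxygen-regulated transcription factor, at -0.58 (SE 0.34) and Pdk1, which restrains pyruvate oxidation, at 0.29 (SE 0.19). Without serum mouse 1 at 24 h the values were 0.51 for Prdx4, -0.20 for Txn1, -0.14 for Mgst1, -0.32 for Hif1a and 0.09 for Pdk1. Heat shock proteins and chaperones had 27 higher and 18 lower of 45 (0.06), including the mitochondrial chaperone gene Trap1 (0.41, SE 0.24) and Dnajb11 of the endoplasmic reticulum (-0.37, SE 0.16). Oxidative phosphorylation genes had 30 higher and 31 lower of 61 (-0.00), including Ndufs3 of complex I (0.35, SE 0.25, other clone 0.08) and Cox6b1 of complex IV (-0.36, SE 0.22). Cytosolic ribosomal protein genes had 18 higher and 31 lower of 49 (-0.06), among them Rps4x (-0.56, SE 0.26) and Rpsa (0.74, SE 0.59). Proteasome subunits had 15 higher and 16 lower of 31 (-0.01), with Psmd14 at -0.27 (SE 0.19) and Psmc5 at 0.17 (SE 0.15).

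Stress and signalling lists were near the median of all genes. Immediate-early genes had 9 higher and 11 lower of 20 (-0.10), where Junb gave -0.39 (SE 0.39), Fos -0.65 (SE 0.63) and Ier5 0.32 (SE 0.33), and without serum mouse 1 at 24 h they gave -0.03, -0.26 and -0.07. Glucocorticoid-responsive genes had 4 higher and 6 lower of 10 (-0.08), with the kinase gene Sgk1 at -0.47 (SE 0.39) and the metallothionein genes Mt1 at 0.08 (SE 0.15) and Mt2 at -0.18 (SE 0.18). NF-kB pathway genes had 6 higher and 17 lower of 23 (-0.08), with the kinase gene Chuk at -0.32 (SE 0.27) and the inhibitor gene Nfkbia at 0.03 (SE 0.20). Apoptosis genes had 15 higher and 17 lower of 32 (-0.02). The caspase genes Casp1 and Casp4, of inflammatory cell death, gave -0.49 (SE 0.31) and -0.49 (SE 0.27), and Cflar, a caspase-8 inhibitor, 0.37 (SE 0.19). Cell cycle and DNA replication genes had 43 higher and 30 lower of 73 (0.04). Ccne1, described below, gave a late difference of 0.86 (SE 0.35) and E2f5 one of -0.39 (SE 0.22). Lung epithelium and endothelium markers had 13 higher and 5 lower of 18 (0.11), but 11 of the 18 were above the empty spots in any mouse and 3 in all. Epcam, an epithelial adhesion protein, gave 0.34 (SE 0.23), and Pecam1, which platelets and leukocytes also carry, -0.07 (SE 0.21).

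**Figure D5:**
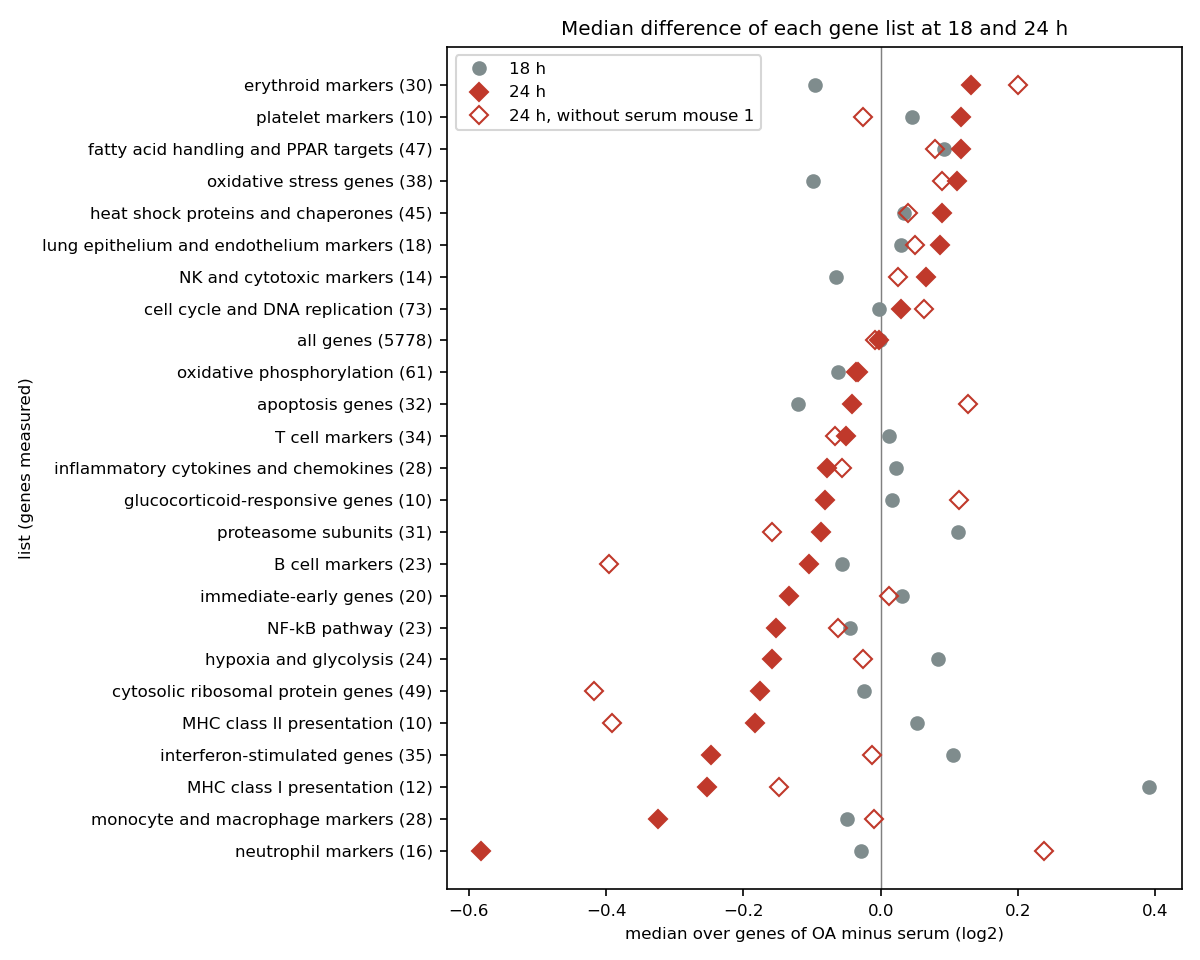
Median of OA minus serum (log2) over the measured genes of each list at 18 h (circles) and 24 h (diamonds), with open diamonds for 24 h without serum mouse 1. Neutrophil markers move from -0.58 to 0.24 and monocyte and macrophage markers from -0.32 to -0.01 when that mouse is left out, and MHC class I genes lie at 0.39 at 18 h and -0.25 at 24 h.

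The effect of OA was also taken at each time and compared between them. At 18 h 0 of 7739 clones passed and 45 (0.581%) had an unadjusted p under 0.05, 18 higher (0.233%) and 27 lower (0.349%). At 24 h 0 passed and 547 (7.07%) did, 302 higher (3.9%) and 245 lower (3.17%), with a smallest limma adjusted p of 0.689. The median SE was 0.27 at either time. The treatments did not overlap at 24 h for 715 clones with OA higher (9.24%) and 811 with OA lower (10.5%), and at 18 h for 143 (1.85%) and 168 (2.17%). The median distance between the serum mice was 0.43 at 18 h, where 1 of them stood apart, and 0.30 at 24 h. The difference between the effects at 24 and 18 h, tested itself, passed for 0 clones, with 315 (4.07%) at an unadjusted p under 0.05, 168 higher (2.17%) and 147 lower (1.9%), and a smallest adjusted p of 0.969.

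The genes that led this difference are given as values. Ccne1, cyclin E1, which starts DNA replication, was at 8.88, 8.86, 8.76 and 8.65 in OA mice at 18 h against 8.75 and 9.02, and at 10.38, 10.84, 9.69 and 9.52 at 24 h against 8.34 and 8.24. The estimates were -0.10 at 18 h and 1.81 at 24 h (limma adjusted p = 0.689), and the latter was 1.87 and 1.76 without serum mouse 1 or 4 at that time. The filters of OA mouse 2 at 24 h read 9.54 and 11.23 for Ccne1. Its estimate at 24 h passed when all 37 mice shared 1 estimate of the spread (limma adjusted p = 0.0299). Rps6kb1, the ribosomal S6 kinase downstream of mTOR, gave -0.21 and 1.23, and Snrk, a kinase of the AMPK family, -0.34 and 0.77. Terf1, a telomere-binding protein, gave -1.07 and 1.05. Its other clone gave -0.27 and -0.01, but was above the empty spots in 0 of 8 OA and 0 of 4 serum mice. Prg3, of eosinophil granules, gave -0.31 and 0.81 and was above the empty spots in 4 of 8 OA and 0 of 4 serum mice.

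Genes with the opposite order were Ddx3x, an RNA helicase, Dgcr2, Cryzl1, Pitpnm1 and Arhgap27. Ddx3x was at 10.94, 10.80, 11.02 and 10.81 in OA mice at 18 h against 10.45 and 10.39, and at 9.78, 10.25, 10.45 and 10.59 at 24 h against 11.09 and 11.03. OA values were thus above both serum values at 18 h and below both at 24 h, with estimates of 0.47 and -0.79 (limma adjusted p of the difference 0.969). Its other clone, also above the empty spots in all 12 mice, gave -0.05 and -0.18. Dgcr2, a membrane receptor, gave 0.41 and -0.97, Pitpnm1, a lipid transfer protein, 0.16 and -0.80, Cryzl1 0.35 and -0.68 (-0.05 and -0.22 in its other clone), and Arhgap27, a GTPase-activating protein, 0.39 and -0.58. The last 2 were above the empty spots in 2 and 3 of the 8 OA mice, and the other clone of Cryzl1 in 0 of the 8.

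Serum mouse 1 at 24 h weighed on the comparison at that time. With it as the lone serum mouse, and its spread assumed to equal that of the other groups, 28 clones passed at 24 h, 26 lower in OA and 2 higher. The lower ones included Il1rn (-4.08), Lmnb1, lamin B1 (-2.84), and, named after their values were seen, Fgl2 (-5.48), Gbp2 (-2.86), an interferon-induced GTPase, Tgfbi (-2.34), a matrix protein of monocytes, and the adhesion receptor gene Icam1 (-1.62). The higher ones were Acp1 (1.84) and Ifi44 (1.73). With serum mouse 4 alone in its place 0 clones passed, and the values were -0.23 for Il1rn, 0.11 for Lmnb1, 0.76 for Acp1 and 0.49 for Ifi44.

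Finally, the late differences were set beside those of the earlier hours in a fit over all 37 mice, in which early is 1 and 1.5 h and middle 3 and 4 h. Neither late minus early nor late minus middle passed for any of the 7739 clones (0%). For the 15 leading higher genes the median difference was 0.72 late, 0.19 in the middle hours and -0.03 early, and 4 of 15 had the same sign early. For the 15 leading lower genes it was -0.53, -0.11 and -0.05, and 8 of 15 had the same sign early. Both groups were chosen by their late values. Acp1 gave -0.31 (SE 0.40) early and 0.43 (SE 0.35) in the middle hours.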

How the data were processed

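Per the file headers and values, the authors deposited a linear intensity for each spot, without a background column, and a table of log2 values that the authors quantile normalized over 49 arrays. Per the labels' protocols, RNA was amplified linearly before labelling. The analysis started from the intensities of 7771 clone spots (2213 empty, control and other spots left out), which were log2 transformed, quantile normalized without background correction, and averaged per clone (7739) and per mouse. A current RefSeq symbol was found for 7477 clones, 1045 of them through a synonym, and the brightest clone represents a gene. A clone counted as above the empty spots when its signal exceeded their median by 2.6 robust SDs.

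Tests used limma 3.58.1 in R 4.3.3 (lmFit, eBayes) with Benjamini-Hochberg adjustment over all clones, treatment and time as terms for the late comparison and 4 group means for each time and their difference. Exact permutations reassigned treatment within time. The number of mice, with 2 serum mice at each time, limits the precision. The fit was tested on simulated data.

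Named genes are the 15 of highest and 15 of lowest moderated t with a signal above the empty spots, 5 each way for the difference between times, up to 2 each way per list, and genes fixed by role. Members, the 24 lists and genes fixed by role were chosen with earlier results of these data known. List genes that no mouse showed above the empty spots are counted only. A few genes that these rules select are counted but not reported here by name. No sequences were used.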

Additional observations from a re-analysis of the deposited data

Results flagged for a closer look

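In groups of 4 OA mice, a mouse was singled out when its gap to the nearest other mouse exceeded Dixon's 95% critical share of the group's range, which chance alone does in about 1 of 20 groups. This held for 13 of 310 gene and group pairs. At 24 h mouse 2 was low for Qtrt2 (10.80, nearest 11.61), Cep57 (8.90, nearest 9.758) and Mt1 (9.294, nearest 9.613) and high for Prdx4 (13.45, nearest 12.71). For Qtrt2 and Cep57 these are means of filters that read 8.77 and 12.83, and 6.82 and 10.98. At 18 h mouse 2, of the pair that stood apart, was low for Pf4 (13.11, nearest 14.28), H2-DMa (7.713, nearest 8.999) and Rpsa (10.21, nearest 12.45). The others were single genes: at 24 h Cd79b (10.38) and Irf9 (8.561) were high in mouse 5, Lcn2 (8.766) was high in mouse 6 and Gpx1 (14.39, nearest 14.41, near the ceiling) was low in mouse 3, and at 18 h Tnfrsf13b (7.816) was low in mouse 5 and Ctsw (7.451), a protease of cytotoxic cells, was high in mouse 6. No clone passed the test of a difference between the effects at 18 and 24 h.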

How the results depend on the processing

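No clone passed for the late comparison or for the difference between times under any alternative run: median scaling, the authors' quantile table, subtraction of the empty-spot median, a filter on dim clones, all mice in the fit, every filter with the mouse as a random block, 1 filter per mouse, eBayes with trend and robust, no time term (late only), each mouse left out and, chosen after seeing the data, leaving out the 2 mice that stood apart, median signal as a covariate and array weights. At 24 h 1 clone passed with the empty-spot median subtracted (Gatad2b, -1.30, limma adjusted p = 0.00756, named after its value was seen) and 1 with all mice in the fit (Ccne1). With each mouse left out, the count ran from 0 to 1 at 18 h (Ptgr1, without serum mouse 4) and from 0 to 28 at 24 h (without serum mouse 4); the first leaves the serum mouse that stood apart as the lone control at 18 h. Late counts at an unadjusted p under 0.05 were 174 in the reported fit, 48 without serum mouse 1 at 24 h, 525 without serum mouse 4 at 18 h, 516 without OA mouse 2 at 18 h and 423 without the 2 mice that stood apart. The 30 leading genes, chosen by this comparison, kept their sign under each alternative in which they were tested (the filter on dim clones left out 2 of them), at a median of 0.777 times their size without serum mouse 1 at 24 h, where 10 shrank by over 1.5 times, and 1.38 times with the empty-spot median subtracted (smallest adjusted p 0.12). None of the 125 other named genes passed in the late comparison, but 17 changed sign without serum mouse 1 at 24 h, 17 with median signal as a covariate, 16 without serum mouse 1 at 18 h, 14 with array weights, 11 without the 2 mice that stood apart and at most 5 under any other alternative. No paired analysis was possible because OA and serum mice of 1 time carry different numbers, and equal numbers at 18 and 24 h are different mice.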

Other observations

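The pair of mice that stood apart, OA mouse 2 and serum mouse 1 at 18 h, shared large values in both directions. Among the genes that differed most from the other 10 mice, chosen by that difference, Ptp4a3, a protein tyrosine phosphatase, was at 6.80 and 6.83 against 10.88 to 12.71. Mknk2, a kinase of the translation factor eIF4E, was at 7.27 and 7.09 against 11.25 to 11.97, and Eif5a, a translation factor, at 7.65 and 7.65 against 11.18 to 12.45. Cyba, a subunit of the phagocyte NADPH oxidase, was at 7.12 and 7.29 against 9.87 to 11.47. On the other side, Satb1, a chromatin organiser of T cells, was at 11.59 and 12.07 against 8.74 to 10.01, and Tob2, an antiproliferative gene, at 10.36 and 10.22 against 7.69 to 8.67. Fos was at 12.89 and 12.42 against 9.25 to 11.83, and Dusp1, a phosphatase that switches off MAP kinases, at 13.29 and 12.92 against 9.69 to 12.76. Both filters of OA mouse 2 showed the pattern (r = 0.831 between their deviations), and serum mouse 1 was measured on 1 filter.

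The 2 filters of 1 mouse differed by less than OA mice at 18 h, and by about as much as the closer pairs of OA mice at 24 h. These distances are not of like units. A gap between filters is between 2 single filters, whereas a mouse with 2 filters entered the distances between mice as their mean. The median absolute difference over clones was 0.21 to 0.26 between the 2 filters of each of 4 mice, 0.21 to 0.30 between OA mice at 24 h and 0.26 to 0.48 between OA mice at 18 h. It was 0.43 between the serum mice at 18 h and 0.30 between those at 24 h. Deviations correlated between the 2 filters with r = 0.831 for OA mouse 2 at 18 h, 0.585 and 0.565 for OA mice 2 and 6 at 24 h and 0.162 for serum mouse 4 at 18 h, across clones that are not independent. Between the filters of serum mouse 4, 238 clones (3.08%) differed by more than 1 log2 unit.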
